A study of Mus musculus with 13 samples.

Results

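Of the 22367 protein-coding genes annotated on chromosomes 1 to 19, X and Y, 10 were followed here because they encode ligands and secreted antagonists of the BMP and Nodal pathways. The BMP side holds 7 of them, namely the ligands Bmp2, Bmp4, Bmp6, Bmp7 and Gdf6 and the antagonists Nog and Chrd. The Nodal side holds the other 3, the ligand Nodal and its antagonists Lefty1 and Lefty2. The genes were chosen by name, and each was then read in 5 lists of ChIP-seq peaks for AEBP2 and for the histone mark H3K27me3 in mouse embryonic stem cells (mESCs). For each gene and list, a peak was recorded if it touched the gene body or the start site region, which spans 1 kb upstream and 1 kb downstream of the start site.

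BMPs and Nodal are secreted ligands of the TGFβ family that bind pairs of serine/threonine kinase receptors, after which Smad proteins carry the signal to the nucleus. BMP receptors act through Smad1, Smad5 and Smad9, and Nodal receptors through Smad2 and Smad3. Noggin and Chordin bind BMPs outside the cell and keep them from their receptors, and the Lefty proteins, which Nodal signalling itself induces, block Nodal. In the early embryo these opposing signals pattern the body axes, and in serum-grown mESCs BMP signalling is known to help hold off neural differentiation. Polycomb repressive complex 2 (PRC2) methylates lysine 27 of histone H3 at many silent developmental genes, mostly over CpG islands, which are stretches rich in the CG dinucleotide. AEBP2 is an accessory subunit of PRC2 with a zinc-finger domain.

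Endogenous AEBP2 and H3K27me3 were each profiled in 2 samples, and FS2-AEBP2, a tagged AEBP2, in 1 sample without a replicate. All 5 samples are labelled as a wild-type male (XY) ES cell line of strain 129/1, grown undifferentiated in serum with LIF, so each group rests on 1 cell line. Endogenous AEBP2 was precipitated with an antibody raised by the study. For the other antibody the labels say H3K27 and give no methylation state, which the methods give as H3K27me3. FS2-AEBP2 carries a Flag-StrepII tag and was precipitated through the tag by another protocol, on blocked beads. For mass spectrometry, the study's methods describe an N-terminal tag, a pCAG expression plasmid and E14 cells. Their ChIP section names no plasmid or line for the tagged protein, and the labels give the same XY line for all samples. Tag, protocol and perhaps line therefore differ together and cannot be told apart. The series design calls the replicates biological, but nothing ties them to separate cultures, so their differences may be technical in part. SUZ12, the input libraries and the Aebp2 mutant cells were not analysed here.

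The lists held 2877 and 6779 peaks for AEBP2 replicates 1 and 2, 2884 for FS2-AEBP2, and 14112 and 9275 for H3K27me3 replicates 1 and 2. Values given for all 5 lists below follow that order. Each peak has a start, an end and a whole-number score of unstated scale. The score was therefore ranked within its own list, as the percent of that list's peaks with a lower score (score rank). The lists hold no read numbers, so the depth behind a peak is unknown, and a gene without a peak is one that did not pass the caller's threshold, not one shown to lack the protein or mark. Of 7 marker genes of pluripotent cells (Pou5f1, Nanog, Sox2, Zfp42, Esrrb, Klf4 and Tdgf1), only Klf4 had an H3K27me3 peak in its start site region, in replicate 1. That peak covered 16.6% of the region, and an FS2-AEBP2 peak covered 16.4% of it. Over all protein-coding genes, 17.0% and 17.7% had an H3K27me3 peak there in replicates 1 and 2. The share of the 7 markers in replicate 1, 14.3%, was near the first of these.

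The genes differ in the DNA just before their start sites, which is shown here because CpG content was not used to choose them and the genes without peaks sit at its low end in that stretch. Over the whole start site region Nodal lay above the median gene, with 74 CG dinucleotides against 61. The 200 bases upstream of each start site are printed 5′ to 3′ on the gene's own strand (build mm9, NCBIM37), with every CG dinucleotide in capitals. Bmp2 (chr2:133377695-133377894, plus strand) and Bmp6 (chr13:38436795-38436994, plus strand) had peaks of all 5 lists there, Bmp4 (chr14:47010345-47010544, minus strand) had peaks downstream of the start site only, and Nodal (chr10:60880520-60880719, plus strand) and Lefty1 (chr1:182864953-182865152, plus strand) had none in the start site region.
Bmp2: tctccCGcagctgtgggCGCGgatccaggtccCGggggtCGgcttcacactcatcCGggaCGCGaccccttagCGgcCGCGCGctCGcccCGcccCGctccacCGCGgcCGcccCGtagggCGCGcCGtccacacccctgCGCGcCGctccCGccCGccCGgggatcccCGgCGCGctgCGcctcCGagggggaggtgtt
Bmp6: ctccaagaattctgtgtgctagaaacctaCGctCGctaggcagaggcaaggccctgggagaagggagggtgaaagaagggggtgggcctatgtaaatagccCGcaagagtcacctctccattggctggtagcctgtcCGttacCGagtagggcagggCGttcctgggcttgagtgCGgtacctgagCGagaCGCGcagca
Bmp4: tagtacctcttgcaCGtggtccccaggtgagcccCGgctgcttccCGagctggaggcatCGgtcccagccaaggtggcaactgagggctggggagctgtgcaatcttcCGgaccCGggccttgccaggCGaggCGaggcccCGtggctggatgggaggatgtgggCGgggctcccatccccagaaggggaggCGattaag
Nodal: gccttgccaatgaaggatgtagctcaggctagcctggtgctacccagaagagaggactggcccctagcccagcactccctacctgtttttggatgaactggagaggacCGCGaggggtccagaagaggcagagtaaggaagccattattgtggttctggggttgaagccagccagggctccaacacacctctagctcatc
Lefty1: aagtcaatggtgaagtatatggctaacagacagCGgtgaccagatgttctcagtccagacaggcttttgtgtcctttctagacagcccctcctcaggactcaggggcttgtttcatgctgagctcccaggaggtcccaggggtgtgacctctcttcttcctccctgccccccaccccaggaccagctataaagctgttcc
Bmp2 held 33 CG dinucleotides in these 200 bases, Bmp6 10, Bmp4 11, Nodal 2 and Lefty1 1, against a median of 7 over all protein-coding genes. Of the genes not printed, Chrd held 20, Bmp7 18, Nog 16, Gdf6 12 and Lefty2 2. Bmp4 and Bmp6 thus lay side by side in this count although every list covered these bases at Bmp6 and none did at Bmp4.

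Peaks of all 5 lists were found in the start site regions of 6 of the 10 genes: Bmp2, Bmp6, Bmp7, Gdf6, Nog and Chrd. All 6 belong to the BMP side. Over all protein-coding genes, 4.57% had a peak of all 5 lists. Bmp4 had peaks of AEBP2 replicate 2 and of both H3K27me3 replicates, a pattern that it shared with 3.38% of all genes. Nodal, Lefty1 and Lefty2 had no peak of any list in the start site region or the gene body, and 68.5% of all genes likewise had none in the start site region.

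By list, 6 of the 10 genes had an AEBP2 replicate 1 peak in the start site region, against 9.08% of all protein-coding genes. In AEBP2 replicate 2 it was 7, against 22.3%. FS2-AEBP2 peaks were found at 6, against 6.53%. H3K27me3 peaks were found at 7 in replicate 1, against 17.0%, and at 7 in replicate 2, against 17.7%. Counted over gene bodies, the numbers of genes with a peak were the same 6, 7, 6, 7 and 7, against 10.3%, 24.9%, 7.69%, 20.8% and 20.2% of all genes. Both AEBP2 replicates had a peak at 6 genes (8.44% of all genes), and both H3K27me3 replicates at 7 (15.0%).

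Because the background depends on sequence and on the mark, it was also read in narrower sets. Among the 12310 start site regions that touch a CpG-island-like region (a GC-rich, CG-dense stretch, defined with the CpG counts), 16.0%, 39.0%, 11.4%, 24.5% and 27.5% had a peak of the 5 lists, 8.04% had peaks of all 5 lists and 50.7% had none. Among the 3349 with H3K27me3 in both replicates, 40.9%, 68.3% and 38.2% had a peak of AEBP2 replicate 1, replicate 2 and FS2-AEBP2, 39.3% had both AEBP2 replicates and 30.5% had all 3 AEBP2 lists. Of the 7 genes here with H3K27me3 in both replicates, 6 had all 3 AEBP2 lists, with Bmp4 as the exception. The lists also give stronger stretches inside each peak, and with these alone 6, 6, 6, 7 and 7 of the 10 genes were called, against 8.73%, 21.9%, 6.35%, 15.6% and 16.3% of all genes.

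**Figure D1:**
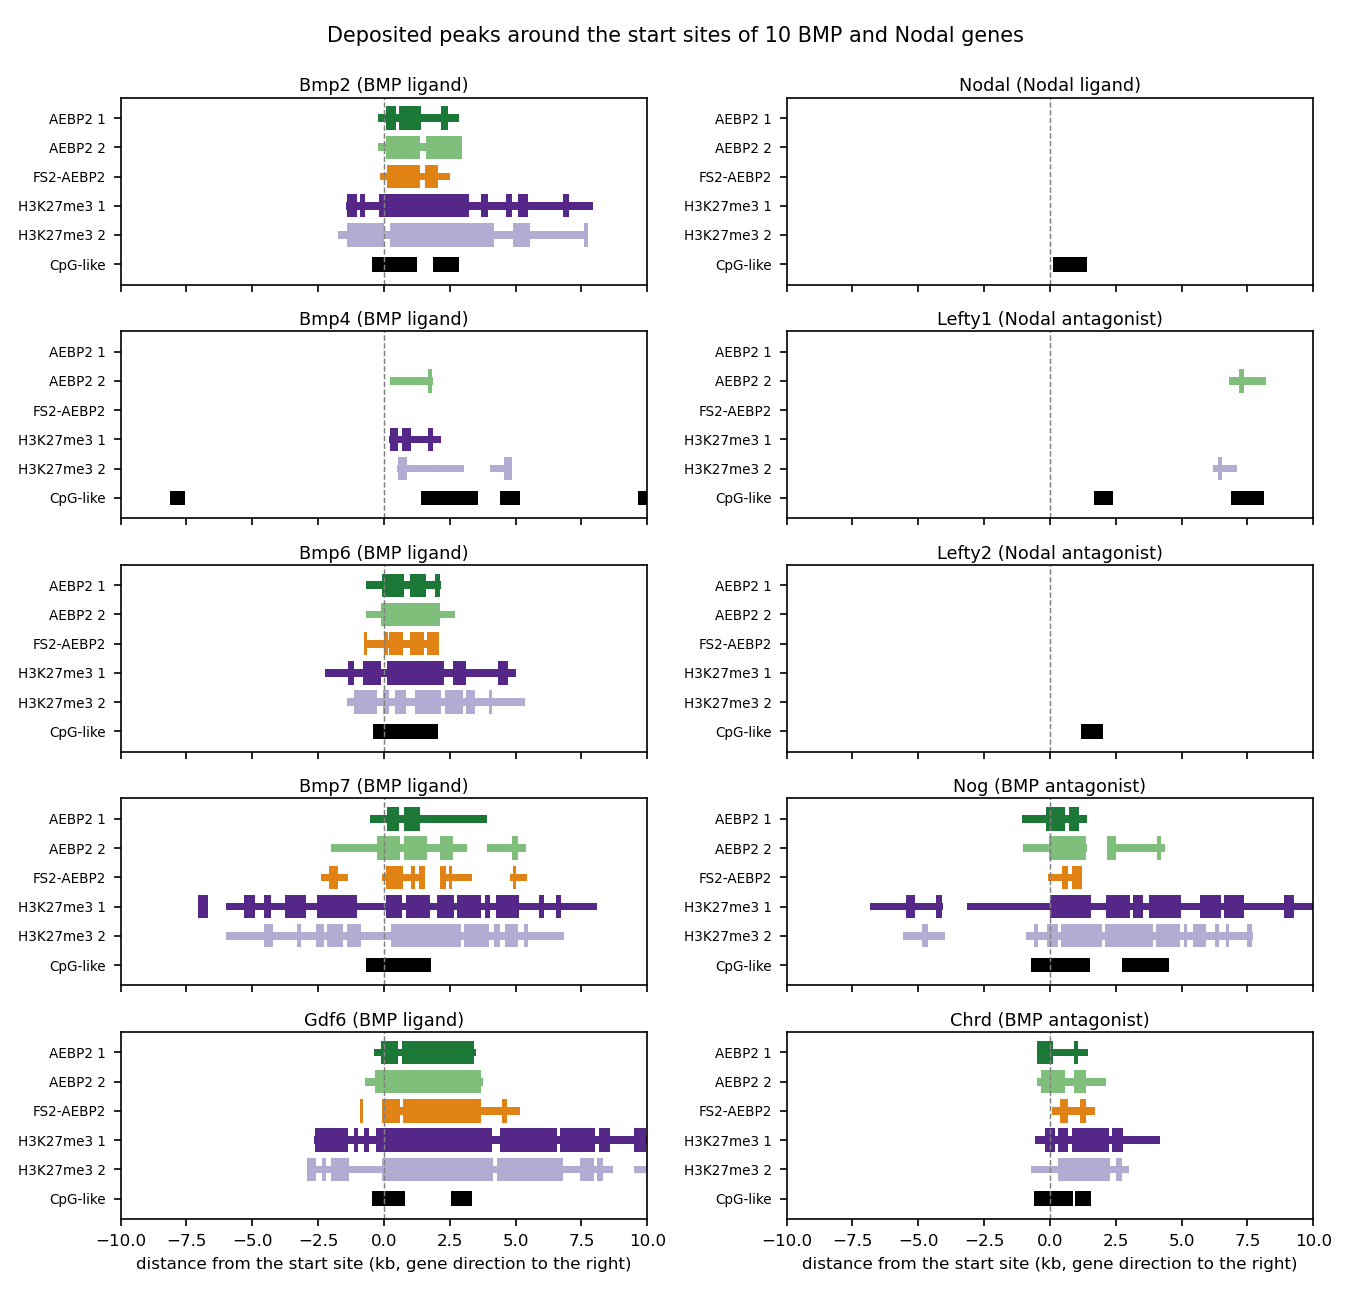
Peaks of the 5 lists within 10 kb of the start site of each gene (dashed line, distance in kb, gene direction to the right; peaks that run past 10 kb are clipped). Thin bars are whole peaks, thick bars the stronger stretches inside them, and black bars CpG-island-like regions. At 6 genes AEBP2 bars sit over or just downstream of the start site, mostly within wider H3K27me3 bars. The endogenous AEBP2 bars at Nog run upstream past the H3K27me3 replicate 2 bar. The only AEBP2 bar at Bmp4 starts past the start site, and none lies around Nodal or Lefty2.

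Bmp2 encodes a BMP ligand required for heart and bone formation and is the closest relative of Bmp4. The gene lies at chr2:133377895-133388621. Its AEBP2 peaks ran from -225 to +2857 bp in replicate 1 and from -209 to +2972 in replicate 2, counted from the start site, and the FS2-AEBP2 peak ran from -165 to +2526. The H3K27me3 peaks ran from -1436 to +7930 and from -1727 to +7749. The edges of the 5 peaks fell close together within each target. Peak lengths were 3083, 3182, 2692, 9367 and 9477 bp, so that H3K27me3 covered 73.9% and 72.2% of the gene body and AEBP2 26.6% and 27.7%. Score ranks were 16.3, 89.9, 75.6, 93.7 and 89.6. The 2 AEBP2 replicates thus placed nearly the same interval at opposite ends of their lists.

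Bmp6 encodes a ligand of the BMP7 subgroup that is best known for its part in iron balance in the liver. The gene (chr13:38436995-38592183) is 155189 bp long, and its peaks were limited to its first few kb. AEBP2 ran from -678 to +2160 and from -675 to +2707, FS2-AEBP2 from -749 to +2108, and H3K27me3 from -2227 to +4999 and from -1402 to +5362. H3K27me3 therefore covered 3.22% and 3.46% of the gene body. Score ranks were 77.2, 95.9, 93.3, 96.0 and 74.6, all in the upper part of their lists. The upstream edge of the FS2-AEBP2 peak over the start site lay beyond those of both AEBP2 replicates.

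Bmp7 encodes a ligand required for kidney and eye development. The gene lies at chr2:172693513-172765822 on the minus strand. AEBP2 replicate 1 covered -523 to +3912 and replicate 2 -2006 to +3134. FS2-AEBP2 ran from -57 to +1558 and was split, with further peaks at -2390 to -1349, +2136 to +3361 and +4794 to +5416. H3K27me3 covered 14066 bp (-5992 to +8073) in replicate 1 and 12839 bp (-6007 to +6831) in replicate 2, and these were the farthest upstream edges among the start site peaks of the 10 genes. Score ranks were 85.0, 85.1, 78.0, 67.4 and 80.2. AEBP2 replicate 2 and FS2-AEBP2 each had an intronic peak near +5 kb (+3929 to +5404 in AEBP2 replicate 2), where no CpG-island-like region was found.

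Gdf6 encodes a ligand of the GDF5 subgroup with roles in joint and eye formation. The gene (chr4:9771519-9789492) was almost wholly under H3K27me3, which covered 96.5% of the gene body in replicate 1 and 95.7% in replicate 2. In replicate 1 this was 1 peak of 19981 bp, the longest of any at these genes, with a score rank of 98.4. In replicate 2 it was a peak of 11640 bp (score rank 92.2) and a second of 9271 bp. The AEBP2 peaks at the start site were 3888 and 4462 bp long, and the FS2-AEBP2 peak 5245 bp, with score ranks of 80.0, 63.1 and 90.1. FS2-AEBP2 also had a short peak of 106 bp upstream, from -895 to -790. A second AEBP2 site lay near the 3′ end of the gene in all 3 lists, at +14584 to +15722 in replicate 1, +13239 to +16427 in replicate 2, and +14373 to +15324 and +15820 to +15949 in FS2-AEBP2. This site included 760 bp of coding exon in replicate 1 and overlapped a CpG-island-like region at +14872 to +16041, of which 72.7%, 100%, 49.8%, 100% and 100% was covered by the 5 lists. No other of the 10 genes had a separate second site in all 3 AEBP2 lists.

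Bmp4 encodes the ligand that induces mesoderm and primordial germ cells in the early embryo. The gene lies at chr14:47003195-47010344 on the minus strand. None of its peaks held the start site itself. The AEBP2 replicate 2 peak began 0.24 kb downstream of the start site and ended at +1846, and of its length which 125 bp were exon and 1481 bp intron. H3K27me3 ran from +210 to +2147 in replicate 1, and in replicate 2 from +504 to +3038, which was intronic over its whole length, and again from +4009 to +4868. Lengths were 1606, 1938 and 2535 bp for the start site peaks of AEBP2 replicate 2 and H3K27me3 replicates 1 and 2, with score ranks of 51.9, 51.7 and 47.2. All 3 ranks were near the middle of their lists. The nearest peaks of AEBP2 replicate 1 and FS2-AEBP2 were each 491 kb away. The single stronger stretch of the AEBP2 replicate 2 peak was 168 bp long and lay outside the start site region, which this peak covered to 38%. Its call therefore rested on the weaker part of the peak.

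Nodal encodes the ligand that forms the primitive streak and sets left-right asymmetry, and Nodal signalling is known to be active in undifferentiated mESCs (no expression was measured here). The gene lies at chr10:60880720-60888086. A CpG-island-like region of 1270 bp lies from +121 to +1390, and no list had a peak over it. The nearest peaks were 208 kb away in both AEBP2 replicates, 271 kb in FS2-AEBP2 and 176 kb in both H3K27me3 replicates. The median distance from a start site to the nearest peak over all genes was 235, 64.8, 321, 77.6 and 79.2 kb. Nodal was thus nearer than the median gene to a peak of AEBP2 replicate 1 and FS2-AEBP2 and farther in the other 3 lists.

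Nog encodes Noggin, which binds BMPs and covers their receptor-binding surfaces. The gene (chr11:89161952-89163873, minus strand) has a single exon of 1922 bp. H3K27me3 covered all of it and ran on for several kb past its 3′ end, from -3133 to +11203 in replicate 1 and from -922 to +7711 in replicate 2. AEBP2 ran from -1054 to +1414 and from -1039 to +1406, and FS2-AEBP2 from -58 to +1206. Score ranks were 54.7, 89.4, 71.9, 96.9 and 98.1, so the mark stood near the top of both of its lists. AEBP2 replicate 2 had a further peak of 2199 bp at +2158 to +4356, past the end of the gene. It covered 90.7% of a second CpG-island-like region at +2733 to +4522, which H3K27me3 covered fully in both replicates and the other AEBP2 lists did not touch. The start of Gm2018, a processed transcript on the opposite strand, lies at -164, so a peak here cannot be assigned to Nog alone.

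Chrd encodes Chordin, which holds BMPs away from their receptors until it is cut by proteases of the Bmp1 family. The gene lies at chr16:20733200-20742457. Its H3K27me3 peaks, of 4720 and 3715 bp, were the shortest among the 6 genes with all 5 lists. AEBP2 peaks were 1935 and 2611 bp long and FS2-AEBP2 1632 bp. AEBP2 ran from -487 to +1447 and from -490 to +2120, while FS2-AEBP2 began downstream of the start site, at +65, and ended at +1696. Score ranks were 26.7, 79.1, 16.9, 86.6 and 77.5, low in AEBP2 replicate 1 and FS2-AEBP2 and high in the other 3 lists. The record of Thpo, on the opposite strand, touches the same start site region. Its start lies at +1384, inside the peaks of all 5 lists, so these peaks cannot be assigned to Chrd alone.

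Lefty1 (chr1:182865153-182868531) and Lefty2 (chr1:182823239-182829234) encode the feedback inhibitors of Nodal, expressed in the embryo at the midline and on the left side respectively. Their start sites are 41.9 kb apart. For Lefty1 the nearest peaks lay at 417, 6.81, 237, 141 and 6.18 kb, and for Lefty2 at 459, 42.0, 195, 182 and 48.1 kb. The peaks of AEBP2 replicate 2 (+6810 to +8183) and H3K27me3 replicate 2 (+6181 to +7116) downstream of Lefty1 lie near the start of another gene, Tmem63a, at +7322, which the first of them holds, and their score ranks were 15.1 and 16.4. The 2 genes are close copies, and whether reads from shared sequence were placed was not tested. Of the 36-base words in the gene body, 14.5% of those of Lefty1 occurred at Lefty2 and 7.67% of those of Lefty2 at Lefty1. None of the 1966 words of either start site region was found at the other gene.

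Taken by list, the start site peaks of these genes were long and mostly highly ranked. Median lengths were 2961, 3182, 2162, 9367 and 8634 bp, against 1269.5, 884, 1281, 4648.5 and 3586 bp for all start site peaks of the same lists. Median score ranks were 66.0, 85.1, 76.8, 93.7 and 80.2, against 47.2, 51.9, 52.9, 79.4 and 68.1. The measures differ, because the values of these genes take 1 peak per gene. That was the longest peak over the start site, or the longest in the region where none held it. The values for all start site peaks count every peak that touches a region, short side peaks included. The 106 bp FS2-AEBP2 peak at Gdf6 was thus left out of these lengths and ranks. The overlaps with H3K27me3, the length ratios and the CpG-island-like shares below count every peak in the region, this one included. The ranges of rank were wide in AEBP2 replicate 1 (16.3 to 85.0) and FS2-AEBP2 (16.9 to 93.3). These are values of 6 or 7 genes per list and were not tested.

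**Figure D2:**
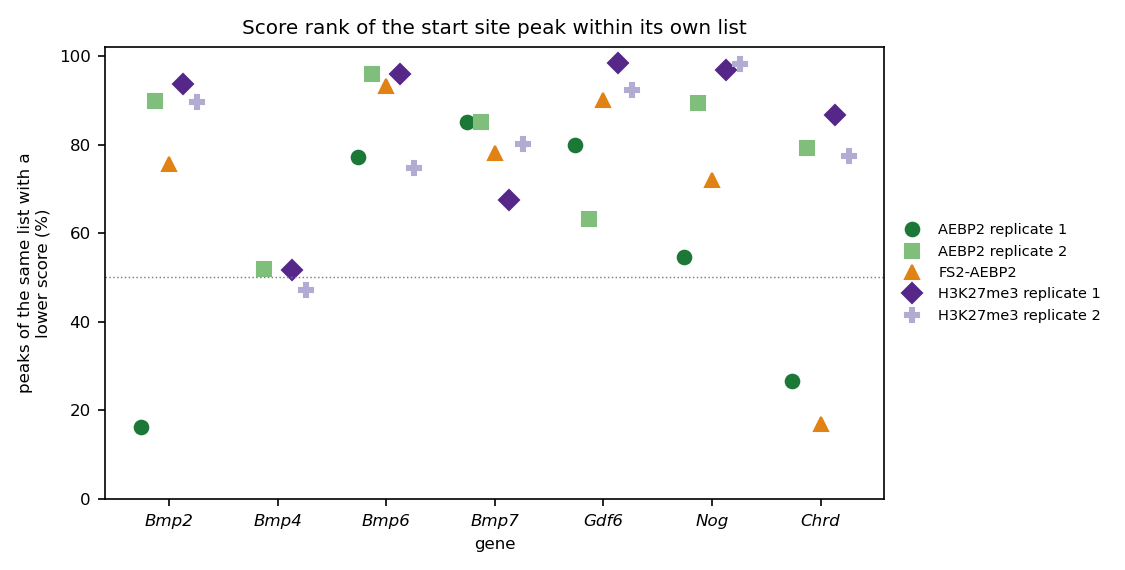
Score rank of the start site peak (percent of the peaks of the same list with a lower score, y axis) for the 7 genes with any peak; each symbol is 1 list and the dotted line marks the middle of a list. Bmp2 and Chrd lie below the line in AEBP2 replicate 1, Chrd also in FS2-AEBP2, and Bmp4 stays near the line in its 3 lists.

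The position of AEBP2 relative to the mark was then compared. AEBP2 peaks in the start site region lay fully under H3K27me3 replicate 1 at all 6 genes with an AEBP2 replicate 1 peak, all 7 with a replicate 2 peak and all 6 with an FS2-AEBP2 peak. Against H3K27me3 replicate 2 the numbers were 5 of 6, 5 of 7 and 6 of 6. The exceptions were Nog, with 94.7% and 95.2% of the AEBP2 base pairs under the mark, and Bmp4, with 83.6%. Over all start site regions with both peaks, 87.6%, 77.9% and 91.9% of the AEBP2 replicate 1, replicate 2 and FS2-AEBP2 regions were fully under H3K27me3 replicate 1, and 84.8%, 68.9% and 89.0% under replicate 2. Nesting at these genes was therefore the usual arrangement for such regions.

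H3K27me3 replicate 1 reached farther beyond AEBP2 replicate 1 downstream than upstream at 5 of the 6 genes with both, namely Bmp2, Bmp6, Gdf6, Nog and Chrd, against 55.8% of the 1376 start site regions with both. At Bmp2 the mark extended 1211 bp past the upstream edge of the AEBP2 peak and 5073 bp past its downstream edge. For Gdf6 these distances were 2260 and 13833 bp, and for Nog 2079 and 9789 bp. Bmp7 went the other way in this pair, with 5469 bp upstream and 4161 bp downstream, but not against the same mark with AEBP2 replicate 2 (3986 and 4939 bp) or FS2-AEBP2 (5935 and 6515 bp). H3K27me3 replicate 2 reached farther upstream at Bmp7 with AEBP2 replicate 1, AEBP2 replicate 2 and FS2-AEBP2. The upstream and downstream distances were 5484 and 2919 bp, 4001 and 3697 bp, and 5950 and 5273 bp. At the other genes the mark reached farther downstream in every pair of lists. Over all start site regions with both, it did so in 53.4% to 57.8%, depending on the pair. The pairs share genes and lists, so they do not repeat the result independently. The median ratio of H3K27me3 to AEBP2 length ranged from 2.5 to 3.60 over the 6 pairs of lists, and from 2.88 to 4.51 over all start site regions with both peaks. With AEBP2 replicate 2, the lowest ratio of the 7 genes was 1.21 at Bmp4 against H3K27me3 replicate 1, and 1.42 at Chrd against replicate 2, where Bmp4 had 1.58.

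The main FS2-AEBP2 peaks began farther downstream than the endogenous AEBP2 peaks at 5 of the 6 genes with all 3 lists. Their upstream edges were -165 at Bmp2, -57 at Bmp7, -78 at Gdf6, -58 at Nog and +65 at Chrd, each downstream of both AEBP2 edges. At Nog the AEBP2 edges were -1054 and -1039, and at Bmp7 -523 and -2006. These are the edges of the main peak, and the separate FS2-AEBP2 peaks farther upstream at Gdf6 (-895 to -790) and Bmp7 (-2390 to -1349) are left aside. Over the 1056 start site regions with peaks of all 3 lists, the FS2-AEBP2 edge lay downstream of both others in 55.9%, with median edges of -642.5, -1089 and -356 bp. The number of FS2-AEBP2 samples was 1, so this was not compared with a replicate.

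Replicates of the same target differed in extent more at some genes than at others. The AEBP2 peaks that touched the start site region shared 99.1% of the base pairs covered by either replicate at Nog, 95.9% at Bmp2, 87.1% at Gdf6, 83.8% at Bmp6, 74.1% at Chrd and 61.8% at Bmp7, with a median of 63.8% over all regions with both peaks. For H3K27me3 the shares were 95.1% at Bmp2, 91.1% at Bmp7, 84.3% at Bmp6, 72.4% at Chrd, 60.2% at Nog, 58.1% at Bmp4 and 56.0% at Gdf6, with a median of 68.7%. Part of this rested on where a list split its peaks. With peaks within 1 kb joined, the H3K27me3 share was 92.1% at Gdf6, where the second peak of replicate 2 was then counted, 47.9% at Nog and 35.3% at Bmp4 (median 69.9%), and the AEBP2 share at Nog was 45.4% (median 65.0%). The shares at Bmp2, Bmp6 and Chrd were the same with and without joining in both targets. Which deposited H3K27me3 list is replicate 1 is uncertain, since the list names seem to number the replicates the other way from the sample records, which were followed.

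CpG-island-like regions were defined as joined windows of 500 bp with at least 55% GC and a ratio of observed to expected CG dinucleotides of at least 0.65. By this definition, 7 of the 10 start site regions touched one, against 55% of all protein-coding genes. The genes without were Bmp4, Lefty1 and Lefty2. In the start site region, Nog had 176 CG dinucleotides, Bmp2 158, Bmp7 142, Bmp6 135, Chrd 121, Gdf6 107, Nodal 74, Bmp4 48, Lefty2 36 and Lefty1 32, with a median of 61 over all genes. The 6 genes with all 5 lists held the 6 highest values. Nodal came next and had no peak, and Bmp4, with peaks in 3 lists, lay below it. The order by CG number and the order by peaks therefore matched at the top and not below.

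Within the peaks, AEBP2 and H3K27me3 differed in how much of their length was CpG-island-like. The medians over genes were 82.8%, 72.7% and 85.5% of the AEBP2 replicate 1, replicate 2 and FS2-AEBP2 peak, and 28.8% and 36.4% of the H3K27me3 peaks. Over all start site regions with a peak they were 90.9%, 100%, 74.0%, 19.7% and 21.4%. In the other direction, the longer H3K27me3 peaks covered a median of 100% of the CpG-island-like regions at the start site in both replicates. The AEBP2 replicate 1, replicate 2 and FS2-AEBP2 peaks covered 94.6%, 97.8% and 68.8%. Bmp4 has no such region at its start site and is not in these values. For the stronger stretches inside the peaks, which the lists give as blocks, the medians were 94.3%, 95.5%, 95.2%, 47.7% and 40.2%. Gdf6 stood apart, with 45.8%, 47.7% and 38.7% of its AEBP2 stronger stretches in such regions, and these stretches ran through the gap between its CpG-island-like regions at -438 to +781 and +2552 to +3351. At Bmp4 the 168 bp stretch of AEBP2 replicate 2 lay wholly in a CpG-island-like region at +1414 to +3563, whereas the stronger stretch of H3K27me3 replicate 2 there had 0% in one. The Lefty genes also carry such regions inside the gene, of 740 bp in Lefty1 (+1668 to +2407) and 860 bp in Lefty2 (+1162 to +2021), with no peak over either.

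**Figure D3:**
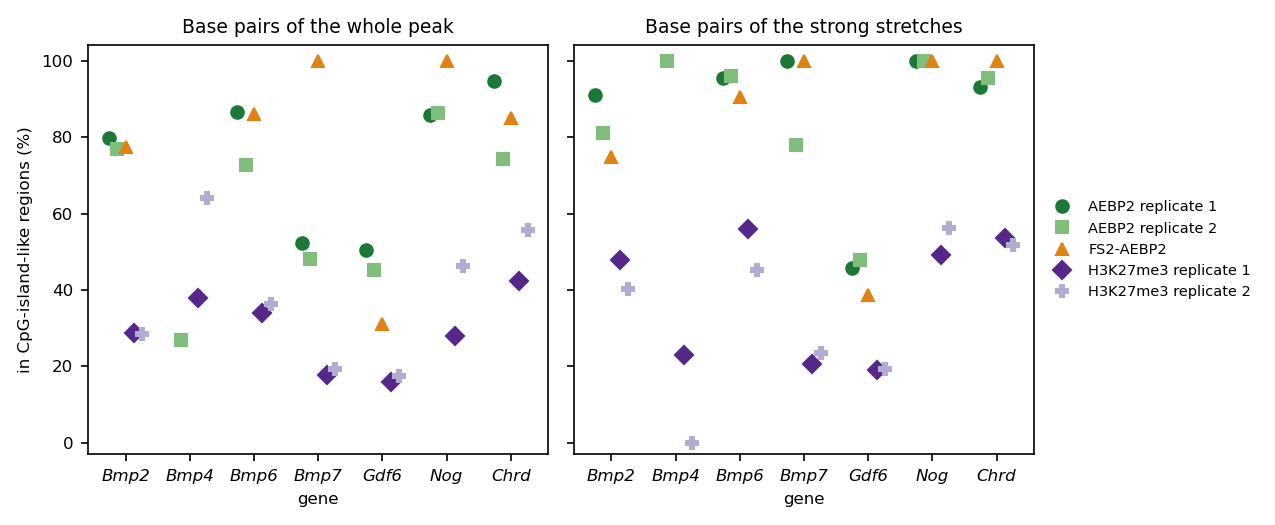
Percent of the base pairs of the start site peaks (left) and of their stronger stretches (right) in CpG-island-like regions, for the 7 genes with a peak. Each symbol is 1 list and counts every peak in the start site region. AEBP2 and FS2-AEBP2 symbols lie above the H3K27me3 symbols at every gene but Bmp4 in the left panel, and Gdf6 has the lowest AEBP2 values in the right panel.

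Over all 10 genes, the base pairs covered within 5 kb of the start site were set against the CpG-island-like base pairs of the same interval. Pearson's r was 0.53, 0.72, 0.33, 0.76 and 0.72, and Spearman's rho 0.40, 0.64, 0.28, 0.64 and 0.60. These describe 10 genes that share the same libraries, and 3 of them are at 0 in every list. The weakest relation was that of FS2-AEBP2.

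The other genes of the pathway were read in the same way. Over all protein-coding genes, the shares with a peak in the 5 lists were 9.08%, 22.3%, 6.53%, 17.0% and 17.7%. Their lists were chosen by function, with earlier results of these data known. Of 23 other ligands of the family, 6 had an AEBP2 replicate 1 peak in the start site region, 11 a replicate 2 peak, 5 an FS2-AEBP2 peak, and 11 and 10 an H3K27me3 peak in replicates 1 and 2. One ligand had all 5, Gdf7, a relative of Gdf6 that acts in the dorsal spinal cord. Of 18 other antagonists and extracellular modulators, 6, 8, 5, 11 and 10 had a peak. Those with all 5 were Grem1, which binds BMPs, Fst, which binds activins, and the proteases Tll1 and Bmp1, which cut Chordin. No list had a peak at 7 of the 18, which were the antagonists and modulators Cer1, Dand5, Fstl3, Twsg1 and Bambi and the Nodal co-receptors Tdgf1 and Cfc1. This was 38.9% of the group, against 68.5% of all protein-coding genes, so lacking a peak does not set these 7 apart.

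Receptors and Smads carry the signal into the cell. Of 14 receptors, 2, 8, 3, 6 and 7 had a peak, and Tgfbr2, the type II TGFβ receptor, had all 5. Of 8 Smads, 2, 4, 1, 3 and 3 had a peak, and Smad6, an inhibitory Smad, had all 5. Of 13 target genes of the pathways, 9, 11, 10, 10 and 12 had a peak, and 8 had all 5, among them Id3, Id4, Msx1, Hand1, Eomes, T and Gsc. Most of these encode transcription factors active in mesoderm, and Id3 and Id4 encode inhibitors of helix-loop-helix factors. The share with all 5 lists was 60.0% for the 10 genes, 61.5% for targets, 22.2% for other modulators, 12.5% for Smads, 7.14% for receptors and 4.35% for other ligands. Over all protein-coding genes it was 4.57%, and 8.04% over start site regions that touch a CpG-island-like region. The shares of Smads, receptors and other ligands each rest on 1 gene and lie near these values.

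Peaks of AEBP2 or FS2-AEBP2 in a start site region without H3K27me3 in either replicate were found at none of the 10 genes, against 11.7% of all protein-coding genes. In the rest of the pathway they were found at 2 ligands (Gdf1 and Inhbb), 3 receptors (Bmpr1a, Acvr2a and Acvr2b) and 3 Smads (Smad2, Smad4 and Smad5). All but Inhbb had such a peak in AEBP2 replicate 2 alone. Inhbb, which encodes the beta B subunit of activin and inhibin (chr1:121312042-121318825), had a peak of all 3 AEBP2 lists, covering 77.4%, 87.7% and 94.9% of its start site region. Its score ranks were 62.5, 76.7 and 82.4, and the nearest H3K27me3 peak lay 84.1 kb upstream in replicate 1 and 1.34 kb downstream of the start site in replicate 2, where its score rank was 5.35.

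**Figure D4:**
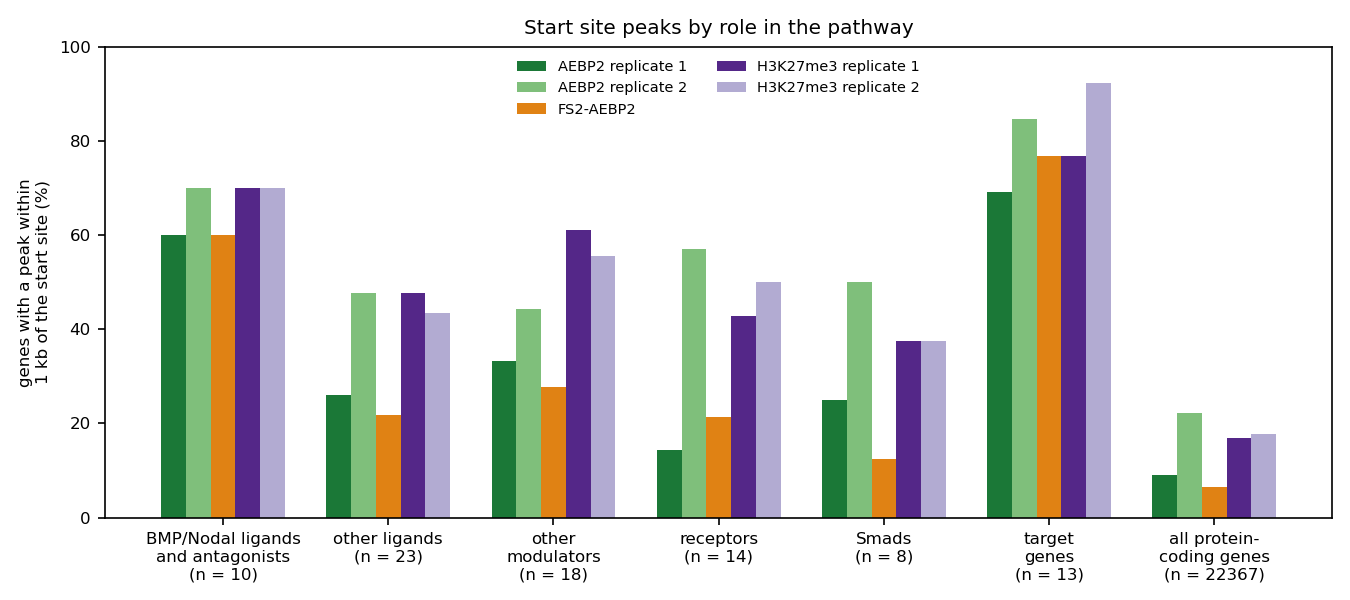
Percent of genes with a peak in the start site region (y axis, bars from 0) for the 10 genes, 5 other groups of the pathway and all protein-coding genes, with 1 bar per list and the number of genes under each group. The 10 genes stand at 60.0% or 70.0% in every list, the target genes at 69.2% to 92.3%, and all protein-coding genes at 6.53% to 22.3%.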

How the data were processed

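ChIP-seq peaks of 5 of the 13 samples were used. The authors deposited them as 1 list per sample, with a start, an end, a score and the stronger blocks of each peak. The submitters' processing notes name Bowtie, SAMtools, Picard and MACS2 2.0.10.2 and the build mm9. Thresholds, control libraries and the scale of the deposited score are not given in the sources used here, and the lists hold no read counts, so no interval for a peak could be given. No peak ended past an mm9 chromosome. Restricting the lists to chromosomes 1 to 19, X and Y removed 2 peaks of AEBP2 replicate 1 and 13 of H3K27me3 replicate 2.

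Gene positions were those of GENCODE vM1. A peak was assigned on an overlap of at least 1 bp. The start site was the 5′ end of the gene record, at position 0, with negative positions upstream. CpG-island-like windows were moved by 10 bp. With 1 or 2 lists per target no test was run, and counts were set beside all protein-coding genes. Named genes were the 10 genes and, from the pathway lists, those with peaks of all 5 lists or with AEBP2 and no H3K27me3. Genes named beyond this rule (the 7 modulators without a peak) were chosen after their values were seen, and 1 target gene that the rule names is not reported here. The genes and lists were chosen with earlier results of these data known. The assignment was tested on simulated lists. Analyses used Python 3.11.15, numpy 2.4.6, pandas 2.3.3 and matplotlib 3.10.9. Alternatives were start site regions of 0.5 and 2.5 kb, at least 50% of the region covered, scores at or above the list median, any annotated transcript start, joined peaks and relaxed CpG-island settings. Stronger stretches alone, leaving out FS2-AEBP2 and joined peaks for replicate sharing were added after seeing the data.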

Additional observations from a re-analysis of the deposited data

How the results depend on the processing

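The counts of genes with a peak kept within 1.5-fold under all 30 alternatives run on them, but the genes behind them changed. With scores at or above the list median, Bmp2 and Chrd were lost in AEBP2 replicate 1 and Chrd in FS2-AEBP2, so 4 genes had all 5 lists. With at least 50% of the start site region covered, Bmp4 was lost in its 3 lists and Chrd in FS2-AEBP2. Bmp4 was also lost in H3K27me3 replicate 2 with 0.5 kb regions and in AEBP2 replicate 2 with stronger stretches alone. Nodal, Lefty1 and Lefty2 gained no peak under any of these alternatives. Joining peaks within 1 kb lengthened 8 of 33 peaks, 2 of them FS2-AEBP2 peaks without a replicate to compare. Among the others, only Nog in H3K27me3 replicate 1 (18022 bp) moved by less than 1 SD between replicates. Those that moved by more were Bmp7 (7411 bp) and Nog (5396 bp) in AEBP2 replicate 2 and Bmp7 in H3K27me3 replicate 1 (15126 bp). Bmp4 (4365 bp) and Gdf6 (21691 bp) in H3K27me3 replicate 2 also did. With relaxed settings 8 start site regions, not 7, touched a CpG-island-like region, and the added gene was Bmp4. No paired analysis was possible because the results come from no test. Depth is unknown. Bmp4 was called in AEBP2 replicate 2 and not in replicate 1, and the reason was not tested.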
